A study of Mus musculus with 8 samples.

Results

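Glypicans and syndecans are the families of core proteins that carry most of the heparan sulfate on the cell surface. All probes that the array table names Gpc1, Gpc3, Gpc4, Gpc6, Sdc1, Sdc2, Sdc3 or Sdc4 were taken, and 7 of these 8 genes had a probe, 10 probes of the 25697 in the table. Gpc6 was not analysed here. Of the 7 genes, 6 were detected on at least 1 array (7 probes of 11651, and 6 genes of 8727), and Gpc1, Sdc1, Sdc2, Sdc3 and Sdc4 were detected on every array. The genes were picked with the moR-21 result already in view. Their values in this contrast are therefore a description with no test.

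The cells were primary mouse aortic smooth muscle cells, grown out from explants of several aortas after the adventitia had been removed. The strain, sex and age of the mice that gave these aortas are not stated in the sources used here. The study names wild type C57/Bl6 mice for its carotid injury model, without tying them to the explants. Using RNAiMAX, the cells received either a mimetic of moR-21, the small RNA next to miR-21 in its precursor hairpin, or a scrambled control oligonucleotide, each at 5 nM. Total RNA was collected after 48 h from 3 samples of each treatment and measured on 8 Illumina BeadChip arrays, because a pair of arrays, A and B, was run for sample 1 of the controls and for sample 3 of the moR-21 group. A mimetic is a synthetic small RNA added from outside, so both groups had been transfected and untransfected cells were not analysed here. The labels do not say whether the 3 samples of a treatment were separate cultures, so the spread between these samples may be technical. Standard errors and p-values below come from limma, which draws each probe's variance toward a value pooled over all tested probes. They therefore do not rest on a probe's own spread alone, whereas each SD does.

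Heparan sulfate is a long sulfated sugar chain built on serines of a core protein in the Golgi. Glypicans are held to the outer membrane leaflet by a glycosylphosphatidylinositol anchor, whereas syndecans span the membrane and have short cytoplasmic tails that bind PDZ proteins and kinases. The chains bind fibroblast growth factors, heparin-binding EGF-like growth factor, chemokines and other ligands and can present them to their receptors. In arterial smooth muscle, heparan sulfate proteoglycans are known as modulators of growth factor responses, migration and matrix assembly.

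The sequences below are shown because the treatment is defined by them. They were taken from RefSeq on the mouse assembly GRCm38.p6 and are written 5′ to 3′. The first is the stretch of the pre-miR-21a hairpin that precedes miR-21a-5p, at chr11:86584142-86584158 on the minus strand. Its capitals mark the 5 bases shared by the first 3 seed windows that the study scanned for moR-21. As the study draws it, moR-21 starts just before this annotated hairpin and ends where the printed stretch ends, and the base before the hairpin is not printed. The second is miR-21a-5p itself, at chr11:86584120-86584141 on the minus strand, with its seed, bases 2 to 8, in capitals.
pre-miR-21a, bases before miR-21a-5p: uGUACCaccuugucgga
mmu-miR-21a-5p: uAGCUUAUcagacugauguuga

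The median raw intensity of an array lay between 102 and 109, and each array had between 10285 and 10512 detected probes, those with a detection p-value under 0.01. Signals below are log2 values after quantile normalization of the 8 arrays, with the arrays of a sample averaged, and differences are moR-21 minus control. Probes differ in how brightly they light up, so members are compared between treatments at the same probe, never with one another. The number of samples limits the precision of every value. In RNA from whole cultures, fewer cells of a type and less RNA per cell cannot be told apart.

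Gpc1, the glypican that is known to bind fibroblast growth factors and to modulate their signalling, was brighter on every moR-21 array than on every control array. The raw intensity of its probe, ILMN_2635784, was 235 and 245 on the arrays of control sample 1, 211 in control sample 2 and 217 in control sample 3. On the moR-21 arrays it was 568 in sample 1, 529 in sample 2, and 574 and 526 on the arrays of sample 3. The groups did not overlap, and the dimmest moR-21 array was far above the brightest control array. After normalization the log2 signal was 7.83, 7.82 and 7.79 in control samples 1, 2 and 3 (mean 7.81 ± 0.023 SD, n = 3). It was 9.12 in each of the 3 moR-21 samples (SD 0.0018, n = 3). The log2 difference was 1.305 with a standard error of 0.044 in the limma fit, a fold change of 2.47, and it ranked 2 among the rises of the 8727 genes. The 2 arrays of control sample 1 differed by 0.06 in Gpc1 and those of moR-21 sample 3 by 0.02. Over all probes detected on at least 1 array, the medians of the absolute difference were 0.057 and 0.064. Dropping any single sample left the log2 difference between 1.29 and 1.31. With normexp background correction, which removes an estimated background from each intensity, it was 1.73.

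**Figure D1:**
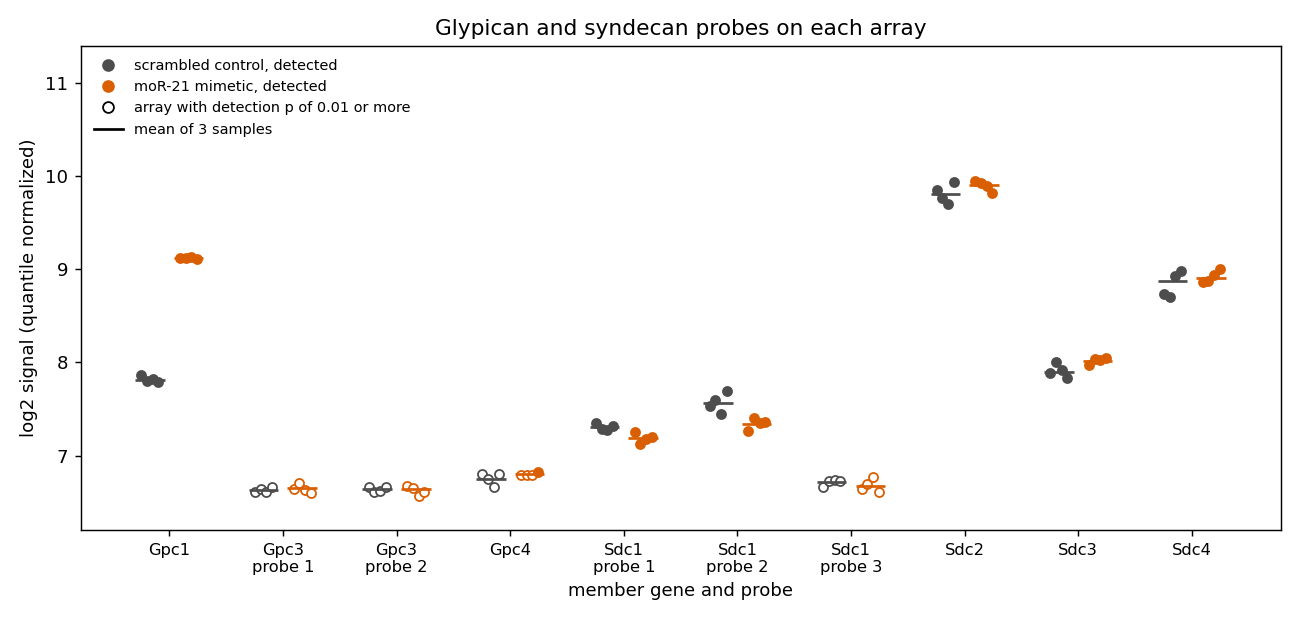
Log2 signal (quantile normalized, vertical axis) of each glypican and syndecan probe (horizontal axis) on the 4 control and 4 moR-21 arrays. Each point is an array, open points are arrays on which the probe was not detected, and bars are means of the 3 samples. Sdc1 probes 1, 2 and 3 are ILMN_2756943, ILMN_1228718 and ILMN_2927799. The Gpc1 arrays form separate groups at 7.81 and 9.12, while both Gpc3 probes and the third Sdc1 probe have open points throughout.

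The other glypicans were at the edge of detection or below it. Gpc3, an X-linked glypican known for restraining body growth, has a pair of probes and neither was detected on any array, with detection p-values from 0.11 to 0.652 for ILMN_2832979 and from 0.206 to 0.845 for ILMN_2719973. Gpc4, which like Gpc1 is anchored by lipid and can bind growth factors, had detection p-values from 0.00501 to 0.213 on ILMN_1258035. It passed the detection threshold on array B of moR-21 sample 3 alone. Its log2 signal was 6.78, 6.66 and 6.80 in the control samples and 6.79, 6.79 and 6.81 in the moR-21 samples. The groups overlapped, and with 1 detected array no fold change is given. Of the glypicans analysed, Gpc1 was thus the one with a measurable level in both treatments.

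Sdc1, the syndecan best known from epithelia and plasma cells and present in injured vessel walls, was lower in the moR-21 samples on both of its detected probes. On ILMN_1228718 the log2 signal was 7.56, 7.45 and 7.70 in the control samples and 7.26, 7.40 and 7.36 in the moR-21 samples, a difference of −0.23 (SE 0.062). The highest moR-21 sample lay just under the lowest control sample. On ILMN_2756943 it was 7.32, 7.28 and 7.32 against 7.25, 7.12 and 7.19, a difference of −0.12 (SE 0.048). The groups were again separate, by a small margin. The third probe, ILMN_2927799, was not detected on any array (detection p-values from 0.0414 to 0.523). With normexp background correction the differences of the detected probes were −0.43 and −0.26, with the sign kept and the size larger.

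Sdc2, the syndecan typical of fibroblasts and other mesenchymal cells, overlapped between the treatments. Its log2 signal on ILMN_2619983 was 9.81, 9.70 and 9.94 in the control samples and 9.95, 9.92 and 9.86 in the moR-21 samples, a difference of 0.10 (SE 0.059). The spread of the control samples (SD 0.119) exceeded that difference. Sdc4, a syndecan of focal adhesions that binds protein kinase C alpha, also overlapped. Its values on ILMN_2728729 were 8.72, 8.93 and 8.98 against 8.87, 8.88 and 8.97, a difference of 0.03 (SE 0.064). Control sample 1 was the lowest of the 6, and without it the difference was −0.05.

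Sdc3, a syndecan first known from nerve and muscle, was slightly higher in the moR-21 samples. Its log2 signal on ILMN_2715042 was 7.94, 7.92 and 7.83 in the control samples and 7.98, 8.04 and 8.04 in the moR-21 samples, a difference of 0.12 (SE 0.048). The sample values did not overlap, but array B of control sample 1 alone lay above moR-21 sample 1. Arrays A and B of that control sample were apart by −0.11 (A minus B), a gap of about the size of the difference between the treatments.

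Read at the brightest detected probe, 1 of the 6 genes, Gpc1, was past the cutoffs of the study's methods, a fold change over 1.3 and a Benjamini-Hochberg adjusted p under 0.002 by limma. Past the same cutoffs were 7.79% of the 8727 genes tested, 3.41% higher and 4.38% lower. The 3 moR-21 samples lay above all 3 control samples in 2 of the 6 genes and below them in 1, and the groups overlapped in 3. Over all genes tested, 24.4% lay above and 21.9% below, which makes 46.3% with no overlap. The median log2 difference of the 6 genes was 0.07, beside 0.01 over all genes. These counts include Gpc4, which was detected on a single array. Because the genes were chosen with these values known, nothing is read from the counts.

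**Figure D2:**
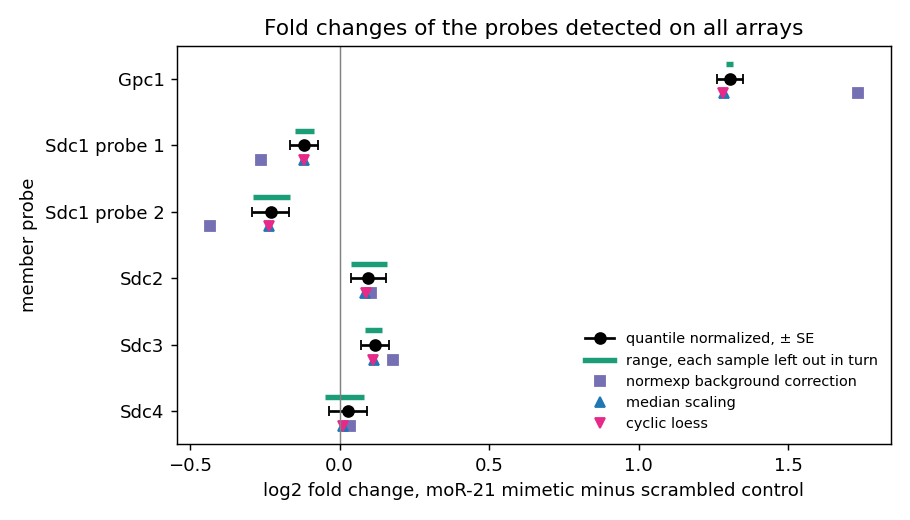
Log2 difference, moR-21 minus control (horizontal axis), of the glypican and syndecan probes detected on every array (vertical axis). Black points are the quantile normalized values with their standard errors, green bars the range when any single sample is dropped, and coloured symbols other ways of processing. Gpc1 stays to the right at 1.28 or more, both Sdc1 probes stay left of 0, and the Sdc4 bar crosses 0.

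The cell type markers were read to see what the RNA came from, since one label field calls the cells AoECs where the others call them smooth muscle cells. Of 7 endothelial markers, Vwf alone was detected, and its signal on a linear scale was 117 to 120 in the control and 118 to 127 in the moR-21 samples. Pecam1, Cdh5, Tek, Tie1, Kdr and Emcn were not detected on any array. Of 8 smooth muscle markers 5 were detected on at least 1 array, among them Acta2, smooth muscle actin, while Myh11, Cnn1 and Myocd, which mark contractile smooth muscle, were not detected on any array. Tagln was detected on the 4 moR-21 arrays and on none of the control arrays. Its signal was close to background in both groups and it was not called. The mean log2 signal was 6.74 in the control and 6.94 in the moR-21 samples. The summed linear signal of the smooth muscle markers was 9950 to 10300 in the control and 12700 to 13600 in the moR-21 samples. Most of it was the signal of the brightest Acta2 probe, at 9140 to 9500 and 11900 to 12800. That probe rose by 0.40 (SE 0.047, limma adjusted p = 2.14e-05). The dimmer Acta2 probes were called higher as well, with 0.73, 0.64 and 0.81. Des, desmin, had −0.38 (limma adjusted p = 8.6e-05), just short of the fold cutoff, and Smtn, smoothelin, had −0.05 (limma adjusted p = 0.626), so the smooth muscle markers did not all run one way.

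Some markers of other cells of the aortic wall differed between the treatments as well. Others were not called, namely the adventitial Pdgfra (−0.17), the mesothelial Krt19 (−0.13), and the macrophage markers Cd14 (−0.27) and Csf1r (−0.01). Of 6 adventitial fibroblast markers 4 were detected, and their summed linear signal was 4900 to 5070 in the control and 3160 to 3440 in the moR-21 samples, with called falls of Ly6a (−1.24, limma adjusted p = 9.35e-08) and Lum (−0.56, limma adjusted p = 2.21e-06). Dpt and Cd34 were not detected on any array, and Pi16 was detected on the control arrays only. Pi16 was close to background in both groups, with mean log2 signals of 6.94 in the control and 6.65 in the moR-21 samples. Of 7 mesothelial markers 2 were detected, and their sum was 771 to 780 against 402 to 416, of which Upk3b gave 597 to 627 against 253 to 267, with a called fall of Upk3b (−1.24, limma adjusted p = 2.51e-10). Upk1b, Msln, Krt8 and Krt18 were not detected on any array, and Wt1 was not analysed here. Of 6 macrophage markers Cd14 and Csf1r were detected, with a sum of 1460 to 1530 against 1240 to 1270, mostly that of Cd14, and Ptprc, Cd68, Emr1 and Itgam were not detected on any array. The part of these shifts in the differences of the glypicans, the syndecans and the genes described below was not tested.

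Genes that build, edit and degrade heparan sulfate were then read as the surroundings of Gpc1. Read with them were other core proteins, shedding enzymes with an inhibitor, and partners of the syndecan tails. These lists too were drawn up with earlier results of these data known, so their counts describe the genes in these samples and are not independent evidence. Of 75 listed genes 67 were in the table and 48 were tested, of which 5 rose and 6 fell past the cutoffs, 22.9% of those tested beside the 7.79% of all genes. At an unadjusted p under 0.05, 9 were higher and 19 lower. The share of all genes at that p was not counted, so nothing is read from these or later counts at that p. The sign of the difference was positive in 18 and negative in 30, where all genes gave 4519 and 4208, and the median was −0.06, beside 0.01 over all genes. The moR-21 samples lay above all control samples in 14 of the 48 genes, below them in 16, and overlapped with them in 18, where 24.4% of all genes lay above and 21.9% below. Of the 48 genes 3, Hpse, Sgsh and Mmp9, were detected on moR-21 arrays alone, so that they passed the detection filter through a single treatment, and Hpse is among the 14.

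Among the other core proteins that can carry heparan sulfate, 6 of 9 were tested, of which 2 rose and 1 fell. This count and those of the groups that follow stand beside 3.41% higher and 4.38% lower over all genes, and with so few genes in each group nothing is read from them. Cd44, the hyaluronan receptor, some splice forms of which carry the chain, had log2 signals of 7.58, 7.497 and 7.37 in the control samples and 7.86, 7.92 and 7.90 in the moR-21 samples. It rose by 0.41 (SE 0.055, limma adjusted p = 5.71e-05), and without control sample 3 the difference was 0.35 and missed the fold cutoff. With normexp background correction it was 0.69. Nrp1, the co-receptor of semaphorins and of vascular endothelial growth factor, went from 9.32, 9.21 and 9.21 to 9.65, 9.66 and 9.65. It rose by 0.41 (SE 0.048, limma adjusted p = 1.78e-05), and its second probe rose by 0.43.

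Col18a1, the collagen of basement membranes from which endostatin is cut, fell by 0.48 on the log2 scale (SE 0.055, limma adjusted p = 1.37e-05). Its log2 signals were 9.17, 9.25 and 9.15 in the control samples and 8.63, 8.67 and 8.82 in the moR-21 samples, while a dim second probe had −0.03 and was not called. Perlecan and agrin, the other large basement membrane proteoglycans, did not pass the cutoffs, with −0.05 for Hspg2 (limma adjusted p = 0.532) and −0.16 for Agrn (limma adjusted p = 0.0221). Tgfbr3, the membrane-bound betaglycan, had 0.08 (limma adjusted p = 0.455). Gpc2, Gpc5 and Srgn were not detected on any array.

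Every heparan sulfate chain starts from a linker of 4 sugars on the core protein, and 6 of the 7 genes listed for it were tested. Pxylp1, the phosphatase that removes the phosphate from the linker's xylose and that the array table lists as Acpl2, had the largest difference of all 48 genes. Its log2 signal was 10.07, 9.99 and 10.05 in the control samples and 8.91, 8.66 and 8.81 in the moR-21 samples, a called fall with a log2 difference of −1.24 (SE 0.059, limma adjusted p = 2.57e-09), or 2.36-fold. All moR-21 samples lay more than 1 log2 unit below the control samples. Fam20b, the kinase that adds the same phosphate, had −0.14 and was not called. The transferases did not pass the cutoffs either, with −0.16 for B3gat3, −0.10 for Xylt2, and −0.01 for both B4galt7 and B3galt6. All 6 tested genes had a negative sign and a median of −0.12. However, B4galt7 (SE 0.054) and B3galt6 (SE 0.046) turned positive under some alternatives, to 0.024 and 0.015 at most. Xylt1 was not detected on any array.

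Of the 5 chain polymerases 4 were tested. Ext1, which with Ext2 forms the enzyme that lengthens the chain, went from 9.32, 9.22 and 9.29 to 9.73, 9.62 and 9.62. Its rise of 0.38 (SE 0.050, limma adjusted p = 4.69e-05) lay at the fold cutoff and was lost under 7 of 16 alternatives. Ext2 had −0.08 (limma adjusted p = 0.341), Extl2 0.28 (limma adjusted p = 0.00257) and Extl3 −0.05 (limma adjusted p = 0.478), none of them called. Of the 16 listed genes of the sulfotransferases and the epimerase that modify the chain, 5 were tested and 0 were called in either direction by limma, with 0 higher and 2 lower at an unadjusted p under 0.05. Ndst1, which removes acetyl groups and adds N-sulfate, had −0.25 (limma adjusted p = 0.0113), and Hs6st1, which adds 6-O-sulfate, had −0.24 (limma adjusted p = 0.00267). Hs2st1, Hs3st1 and Hs3st3a1 lay between −0.05 and 0.09, and Ndst2 was not analysed here.

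The supply of sulfate donor and sugar nucleotides gave 5 tested genes of 10, with 0 called by limma in either direction, and 1 higher and 3 lower at an unadjusted p under 0.05. Papss1, which makes the sulfate donor PAPS, had 0.35 (limma adjusted p = 8.1e-05), below the fold cutoff. Slc35b2, which carries PAPS into the Golgi, had −0.24 (limma adjusted p = 0.000697), again below the fold cutoff. Outside the cell, Sulf1, which removes 6-O-sulfates, had −0.19 (limma adjusted p = 0.0278) and was not called. Hpse, heparanase, was detected on 3 of the 4 moR-21 arrays and on 0 of the control arrays, and no difference is given for it.

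**Figure D3:**
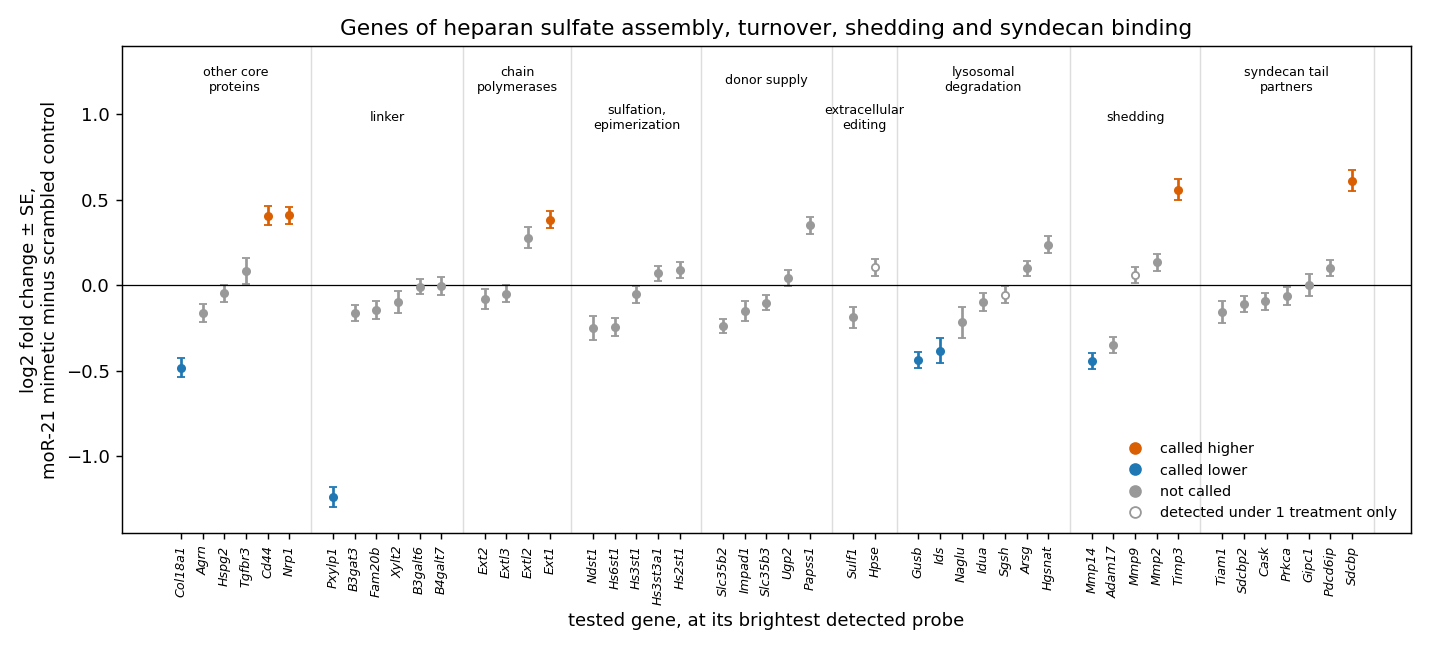
Log2 difference, moR-21 minus control, with its standard error (vertical axis) of the tested genes (horizontal axis, by role). The roles are other core proteins and heparan sulfate assembly, turnover, shedding and syndecan binding. Orange points were called higher and blue points lower by limma, grey points were not called, and open points were detected under a single treatment. Pxylp1 stands lowest at −1.24, and Gusb and Ids are blue.

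All 8 genes of lysosomal heparan sulfate degradation were tested, of which 3 fell and 0 rose past the cutoffs of limma, with 4 lower and 1 higher at an unadjusted p under 0.05. Their median difference was −0.16. Gusb, beta-glucuronidase, went from 11.14, 11.10 and 11.22 to 10.70, 10.72 and 10.73, a difference of −0.44 (SE 0.047, limma adjusted p = 8.17e-06), while its 2 dimmer probes had −0.20 and −0.11 and were not called. Ids, iduronate 2-sulfatase, had −0.38 (SE 0.071, limma adjusted p = 0.000838), which lay at the fold cutoff and was lost under 8 of 16 alternatives. The other members included Naglu with −0.22 (limma adjusted p = 0.082) and Hgsnat with 0.24 (limma adjusted p = 0.00247), the acetyltransferase of the pathway.

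Enzymes listed as able to release syndecans or glypicans from the surface, with their inhibitor, gave 5 tested genes of 8. Mmp14, a membrane-bound metalloproteinase that can cut Sdc1, had 13.43, 13.40 and 13.32 in the control samples and 12.95, 12.89 and 12.98 in the moR-21 samples. It fell with a difference of −0.44 (SE 0.049, limma adjusted p = 9.77e-06). Timp3, the matrix-bound inhibitor of metalloproteinases and of Adam17, went from 9.26, 9.24 and 9.03 to 9.81, 9.71 and 9.69 and rose by 0.56 (SE 0.063, limma adjusted p = 1.18e-05), while a dim second probe had 0.02 and was not called. Adam17, a principal sheddase of Sdc1 and Sdc4, had −0.35 (limma adjusted p = 7.16e-05), which missed the fold cutoff and passed it with normexp background correction at −0.49. Mmp2 had 0.13 (limma adjusted p = 0.0532). Adam10, another sheddase, was not detected on any array. Notum was on this list too and was not detected either, and whether it releases core proteins was not examined.

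Of the 8 listed partners of the syndecan tails 7 were tested, and 1 rose. Sdcbp, or syntenin, the PDZ protein that binds all syndecans and directs them through endosomes, had log2 signals of 9.83, 9.71 and 9.85 in the control samples and 10.54, 10.31 and 10.37 in the moR-21 samples. It rose by 0.61 (SE 0.062, limma adjusted p = 4.15e-06), and its second probe rose by 0.63. Sdcbp2, its close relative, had −0.11 (limma adjusted p = 0.0735), Cask −0.09 (limma adjusted p = 0.154), Gipc1 0.00 (limma adjusted p = 0.994) and Prkca, the kinase bound by Sdc4, −0.06 (limma adjusted p = 0.392). None of these passed the cutoffs, and Prkca was detected on 4 of the 8 arrays, close to background. The partners that work with syntenin in exosome formation were represented by Pdcd6ip, with 0.10 (limma adjusted p = 0.127).

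The ligands and receptors that use heparan sulfate were read with an adaptor and feedback genes of fibroblast growth factor signalling. They gave 14 tested genes of 27, of which 1 rose and 2 fell, 21.4% of those tested beside 7.79% of all genes. At an unadjusted p under 0.05, 2 were higher and 2 lower. Their median difference was 0.02. Frs2, the adaptor that links fibroblast growth factor receptors to Ras signalling, went from 8.69, 8.67 and 8.60 to 7.95, 7.91 and 7.95, a difference of −0.72 (SE 0.046, limma adjusted p = 5.37e-08). The receptor gene Fgfr1 overlapped between the treatments with 0.05 (limma adjusted p = 0.506), and Fgfrl1, a receptor without a kinase domain, had 0.25 (limma adjusted p = 0.00128), below the fold cutoff. Of the ligands, Fgf1 had 0.05 and Fgf7 0.00, and Fgf2 was not detected on any array. Fgf1 was detected on 3 of the 8 arrays, close to background, so its value says little. Of the feedback genes Dusp6 had −0.02, and none of these genes was called. Spry4 and Mdk, midkine, were each detected on 1 moR-21 array alone, and no difference is given for them.

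Among the other heparin-binding ligands, Ptn, pleiotrophin, went from 7.86, 7.84 and 8.05 to 7.41, 7.36 and 7.34, a difference of −0.55 (SE 0.057, limma adjusted p = 5.98e-06). With normexp background correction the difference was −0.95. Cxcl12, a chemokine held by heparan sulfate, was called higher at its brightest probe, with 0.40 (SE 0.053, limma adjusted p = 5.38e-05). Its dimmer probes went the other way, with −0.39 (limma adjusted p = 0.000461, called lower) and −0.36 (not called), so the probes of Cxcl12 disagree and no direction is given for the gene. Without Cxcl12 the list held 0 genes called higher by limma. Hbegf had 0.02, Vegfa −0.03 and Pdgfa 0.12, and none was called. Hbegf was detected on 4 of the 8 arrays, close to background.

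Chondroitin and dermatan sulfate share the linker with heparan sulfate, and their own core proteins and enzymes were read as well. Of 23 listed genes 20 were in the table and 8 were tested, and limma called 0 of them, with 0 higher and 1 lower at an unadjusted p under 0.05. Beside the 7.79% of all genes, a count of 0 among 8 says nothing about the list. The median difference was −0.05, and Chst11 was detected on 1 moR-21 array alone. Decorin, the small proteoglycan that binds collagen fibrils, had −0.22 (limma adjusted p = 0.00654 for Dcn), and biglycan had −0.07 (limma adjusted p = 0.317 for Bgn). The difference between the lists was not tested.

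The genes whose signals ran closest to Gpc1 over the 6 samples were found by the smallest root mean square difference of log2 signals, each taken relative to its mean in the control samples. They were Ndrl (0.068, Pearson r 0.995), which RefSeq lists as a synonym of Ndrg1, Fkbp9 (0.109, r 0.996), a prolyl isomerase of the endoplasmic reticulum, and Pfkl (0.112, r 0.996), the liver form of phosphofructokinase. Next came Ryk (0.167, r 0.996), a Wnt receptor with an inactive kinase domain, and Fscn1 (0.184, r 0.994), which bundles actin. Relative to their control means, the moR-21 samples of these genes lay between 0.98 for Fscn1 and 1.48 for Fkbp9, and those of Gpc1 between 1.302 and 1.306. A value of r over these samples mostly reflects the gap between the treatments, and 90 of the 8726 other genes had r of 0.99 or more.

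**Figure D4:**
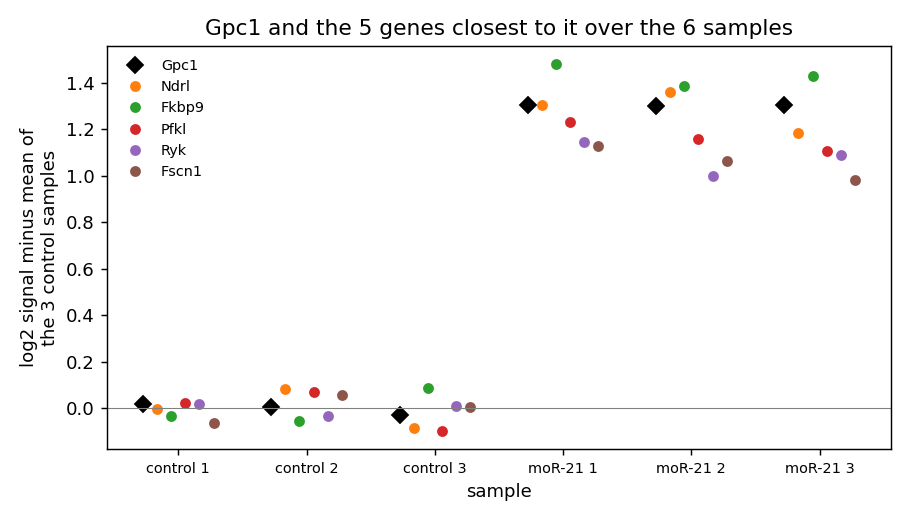
Log2 signal relative to the mean of the 3 control samples (vertical axis) of Gpc1 and its 5 closest genes in each of the 6 samples (horizontal axis). Each symbol is a gene in a sample. All 6 genes lie near 0 in the control samples and between 0.98 and 1.48 in the moR-21 samples. Gpc1 varies least there, by less than the 0.022 between its repeat arrays of moR-21 sample 3, so nothing is read from that closeness.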

How the data were processed

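RNA of 3 control and 3 moR-21 samples was measured on 8 arrays. The authors deposited non-normalized probe intensities, and with each intensity the deposited detection p-value. The submitters' processing notes name lumi, and the methods name a pair of BeadChip designs, Beadstudio, quantile normalization and limma. Every column was tied to a sample by its name. The arrays were brought to a common distribution by quantile normalization, put on the log2 scale and averaged per sample. A detection p-value under 0.01 on 1 array or more kept 11651 probes. Over these, limma 3.58.1 (lmFit and eBayes, R 4.3.3) was fitted with Benjamini-Hochberg adjustment. The cutoffs for a call were an adjusted p under 0.002 together with a change of more than 1.3-fold. For genes with several detected probes the brightest was used. Tables and plots were made with Python 3.11.15, pandas 2.3.3 and matplotlib 3.10.9.

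The text names every probe of the chosen genes, every called gene of each list, other listed genes whose role is described, the 5 genes closest to Gpc1, and the markers. One called gene of the lysosomal list is counted and neither drawn nor reported here. The members and lists were chosen with earlier results of these data known. Of 167 listed symbols, 165 are current in RefSeq, and all 167 are current symbols or synonyms. Names follow RefSeq for Pxylp1 and Chst15. The array table names no genome build, so no gene coordinates are given. On simulated data with 11651 probes, 3 against 3 samples and 200 changed probes, 85% were recovered at a log2 change of 0.6 and 99% at 1, with 0 false calls. The simulated noise was normal and independent between probes and samples, which real arrays need not follow. Changes smaller than 0.6 were not simulated, so the recovery of the many smaller changes called above is not known.

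The processing was varied by normexp background correction (offset 16), by cyclic loess or median scaling in place of quantiles, and by asking for detection on all arrays or on none. The repeated samples were also read from array A or from array B, or with every array in the fit and the sample as a random block. Other fits used a variance trend with robust eBayes, a block for the replicate number, or 1 sample less. Calls were also made from any detected probe, at an adjusted p under 0.05, and at a change of more than 1.5-fold.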

Additional observations from a re-analysis of the deposited data

How the results depend on the processing

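The log2 difference of Gpc1 kept its sign under all 16 refitted alternatives. It was 1.73 with normexp, 1.29 with median scaling, 1.28 with cyclic loess, and between 1.29 and 1.31 with each sample left out. In the lists read as the surroundings of Gpc1, genes called higher numbered 4 to 5 and those called lower 5 to 6 with each sample left out. At a fold change over 1.5 they numbered 1 and 2, because that cutoff leaves fewer genes. For heparin-binding ligands, receptors and their signalling genes, the number called higher was 0 with normexp and 0 at a fold change over 1.5. It was 0 to 1 with each sample left out, and 0 without control sample 1 and without moR-21 sample 2. The number called lower was 1 at a fold change over 1.5. The gene called higher there was Cxcl12, whose probes disagree. Among the glypicans and syndecans, Sdc4 changed sign, to −0.05 without control sample 1 and −0.00 without moR-21 sample 3. Same-numbered samples deviated together with r of 0.19, 0.04 and 0.06, so the numbers were not taken as pairs. With the replicate number as a block, Gpc1 was 1.305 and 815 probes were called in place of 811, and no count for the lists moved. Depth is not known for arrays, and signals close to background, such as those of Gpc4 and Gpc3, limit what can be seen of the other glypicans.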
